A study of Mus musculus with 24 samples.

Results

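The structural maintenance of chromosomes (SMC) proteins, Smchd1 and its partner Lrif1 were followed as 8 genes out of 14922 in a table of RNA levels from mouse neural stem cells (NSCs). The genes were chosen by name: Smchd1, Lrif1, Smc1a, Smc2, Smc3, Smc4, Smc5 and Smc6, and all 8 had a row in the table. NSCs are the stem cells of the embryonic cortex, here grown as adherent monolayers from E14.5 embryos for fewer than 10 passages, with poly(A) RNA sequenced from 100 ng of total RNA of female lines.

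There were 4 groups. FVB_WT cells were Smchd1+/+ on the FVB/NJ strain (6 libraries of 5 lines). FVB_MD43 cells were homozygous on that strain for MommeD43, a chemically induced point change in Smchd1 (5 libraries of 4 lines). B6GFP cells were C57BL/6J and, by the study's methods, homozygous for a fusion of Smchd1 with GFP. B6GFP_WT carried no further change (6 libraries of 4 lines) and B6GFP_MD43 was homozygous for MommeD43, introduced into the fusion by CRISPR/Cas9 together with a silent change at the guide's PAM site (5 libraries of 4 lines). The labels give the B6GFP_WT genotype as Smchd1+/+. Strain and GFP fusion differed together, and their contributions cannot be told apart in these data. Nothing in the labels says whether lines came from separate embryos. The fit used 22 libraries, with the line as a block and a fitted correlation of 0.0828 between libraries of a line. Repeat libraries of a line thus counted almost as separate samples. The p-values therefore measure mostly the spread between these libraries, and not a known spread between lines or embryos.

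SMC proteins are long coiled-coil ATPases that work in pairs. Smc1a with Smc3 forms cohesin, which holds sister chromatids together and extrudes chromatin loops; Smc2 with Smc4 forms the condensins, which compact mitotic chromosomes; Smc5 with Smc6 forms a complex used in DNA repair and replication. Smchd1 has an SMC hinge but a GHKL-type ATPase in place of the usual SMC ATPase, pairs with itself, and maintains silencing on the inactive X chromosome and at gene clusters such as the protocadherins. Lrif1 binds Smchd1 and the heterochromatin proteins of the HP1 family.

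The MommeD43 change lies in exon 15 of the 48 exons of Smchd1 (transcript ENSMUST00000127430.1), at chr17:71427437-71427543 on the minus strand of GRCm38.p6, inside the extended ATPase domain. The reference exon is shown because the mutant groups differ from their controls in it. Capitals mark the GCA alanine codon, in which a C-to-A change gives glutamic acid.
Smchd1 exon 15: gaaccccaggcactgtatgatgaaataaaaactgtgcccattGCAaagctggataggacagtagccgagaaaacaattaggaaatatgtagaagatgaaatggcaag
Since MommeD43 changes 1 base, the RNA level of Smchd1 does not check the genotype labels, and reads over this codon were not used here.

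Libraries fell into 3 batches. Batch 1 held both strains, batch 2 held FVB lines and batch 3 held B6GFP lines. With the deepest library set to 1, batch 1 libraries had depths between 0.526 and 0.893, batch 3 libraries between 0.435 and 1, and batch 2 libraries were the shallowest at 0.137 to 0.19. The absolute depth was unknown, and counting intervals could not be computed. Of 24 deposited columns, 2 equalled the mean of the other columns of their group (FVB_MD43 replicate 3 and B6GFP_MD43 replicate 2, both batch 1) and were left out. Values are log2 CPM, the log2 of reads after scaling to the library size. Of 7 NSC genes listed, Vim, Nes, Sox2, Fabp7 and Slc1a3 had high group means, from 7.64 log2 CPM (Sox2 in B6GFP_MD43) to 11.4 log2 CPM (Vim in B6GFP_WT). Pax6 was lower, with group means of 4.8 to 5.05 log2 CPM, as was Hes1 at 4.32 to 5.89 log2 CPM.

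The first question was how much of each transcript NSCs contained. In the FVB_WT lines Smc1a was listed at 319 CPM, Smc4 at 297 CPM, Smc2 at 248 CPM, Smc3 at 207 CPM, Smchd1 at 154 CPM, Smc6 at 149 CPM, Smc5 at 113 CPM and Lrif1 at 12.4 CPM, each as the CPM of the mean log2 value. Since long transcripts yield more fragments, levels between genes were compared per kb of annotated transcript. On that scale the order was the same in all 4 groups. Smc4 came first, then Smc1a, Smc2, Smc3, Smc5, Smc6, Smchd1 and Lrif1. In FVB_WT the level of Smc4 was 6.10 ± 0.198 log2 CPM per kb (SD, n = 5 lines) and that of Smc1a was 6.09 ± 0.0687. Smc2 was at 5.52 ± 0.0882 and Smc3 at 5.41 ± 0.0878 log2 CPM per kb. Smc5 followed at 5.04 ± 0.138, Smc6 at 4.74 ± 0.11 and Smchd1 at 4.45 ± 0.118 log2 CPM per kb. Lrif1 was far lower, at 2.0 ± 0.248 log2 CPM per kb, which is 2.45 log2 units under Smchd1.

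**Figure D1:**
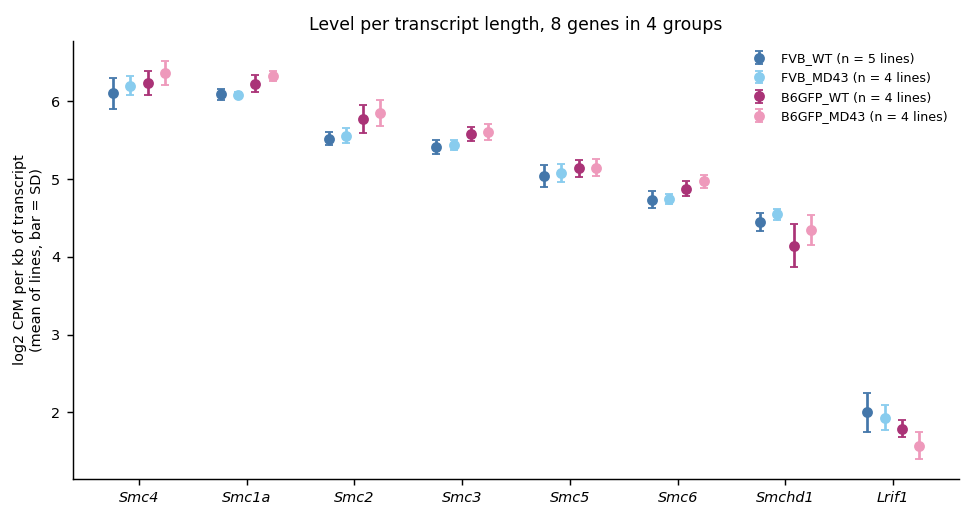
Mean level per kb of transcript on the log2 CPM scale (vertical axis) of the 8 genes (horizontal axis) in FVB_WT, FVB_MD43, B6GFP_WT and B6GFP_MD43, with bars for the SD over lines. Smc4 and Smc1a lie together at the top, from 6.09 to 6.36 in the 4 groups, and Lrif1 stands apart at 1.57 to 2.0.

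Neighbours in this order were not all distinct. The line values of Smc4 and Smc1a overlapped in all 4 groups, where their means differed by 0.0056 to 0.115 log2 units. The line values of Smc2 and Smc3 also overlapped in all 4 groups, with differences of 0.107 to 0.246. Smc5 and Smc6 overlapped in B6GFP_MD43, where they differed by 0.175. The other neighbours did not overlap in any group. Smchd1 lay under Smc6 by 0.2 log2 units in FVB_MD43 and by 0.732 in B6GFP_WT. Per kb of coding sequence Smc1a came before Smc4 and Smc6 before Smc5, so these orders depend on the annotated untranslated ends.

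The 8 genes also differed in how far the lines of a group spread. The pooled SD between lines was 0.0768 log2 units for Smc1a, smaller than for all but 4.7% of the 9982 genes with a mean of at least 3 log2 CPM. It was 0.0879 for Smc3 (8.71% of genes had a smaller SD) and 0.0918 for Smc6. The cohesin pair thus varied little between lines. The levels of Smc1a and Smc3 were above those of 97.5% and 94.8% of genes, and that of Lrif1 above 37.3%. Spread was not compared with genes of like level, so a small SD is not shown to be particular to cohesin. Smc5 and Smc2 were intermediate, with SDs of 0.12 and 0.135. Smc4 at 0.165, Smchd1 at 0.178 and Lrif1 at 0.186 were near the median of 0.164. The 5 lines sequenced in 2 batches gave repeat values of 1 line. By its methods the study's batch correction drew on technical replicates shared by batches, so these gaps are not independent of it. Libraries of these 5 lines differed by at most 0.0559 for Smc3, but by a median of 0.145 and up to 0.305 for Smchd1, in FVB_WT replicate 2. For Lrif1, the gene with the lowest level, the median gap was 0.241 and the largest 0.468, in B6GFP_MD43 replicate 3.

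The next question was whether MommeD43 altered the RNA of Smchd1 itself. Smchd1 (Entrez 74355, chr17:71344489-71475366, GRCm38.p6) was listed in FVB_WT at 6.96, 7.17, 7.27, 7.32, 7.35 and 7.38 log2 CPM. In FVB_MD43 it was at 7.28, 7.32, 7.34, 7.42 and 7.42 log2 CPM. The MommeD43 libraries lay in the upper part of the wild-type range or just above it, and the groups overlapped. The fitted difference was 0.052 (SE 0.06, 95% CI -0.07 to 0.18), with limma adjusted p = 0.942. In B6GFP_WT the libraries were at 6.58, 6.93, 7.07, 7.09, 7.21 and 7.31 log2 CPM. In B6GFP_MD43 they were at 6.99, 7.04, 7.16, 7.24 and 7.42 log2 CPM. Here too the groups overlapped, and the lowest wild-type library, replicate 4 of batch 3, had the smallest quality weight of all (0.101, against 4.9 for the largest). The fitted difference was -0.0087 (SE 0.0776, 95% CI -0.17 to 0.15), with limma adjusted p = 1. Without quality weights it was 0.16 with limma adjusted p = 0.995. In each strain all 4 MommeD43 lines were above the mean of the wild-type lines for Smchd1. The unweighted means over lines differed by 0.096 in FVB and 0.198 in B6GFP. In B6GFP the wild-type mean includes replicate 4 at 6.58 log2 CPM. As folds, the intervals for Smchd1 run from 0.951 to 1.13 in FVB and from 0.889 to 1.11 in B6GFP.

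**Figure D2:**
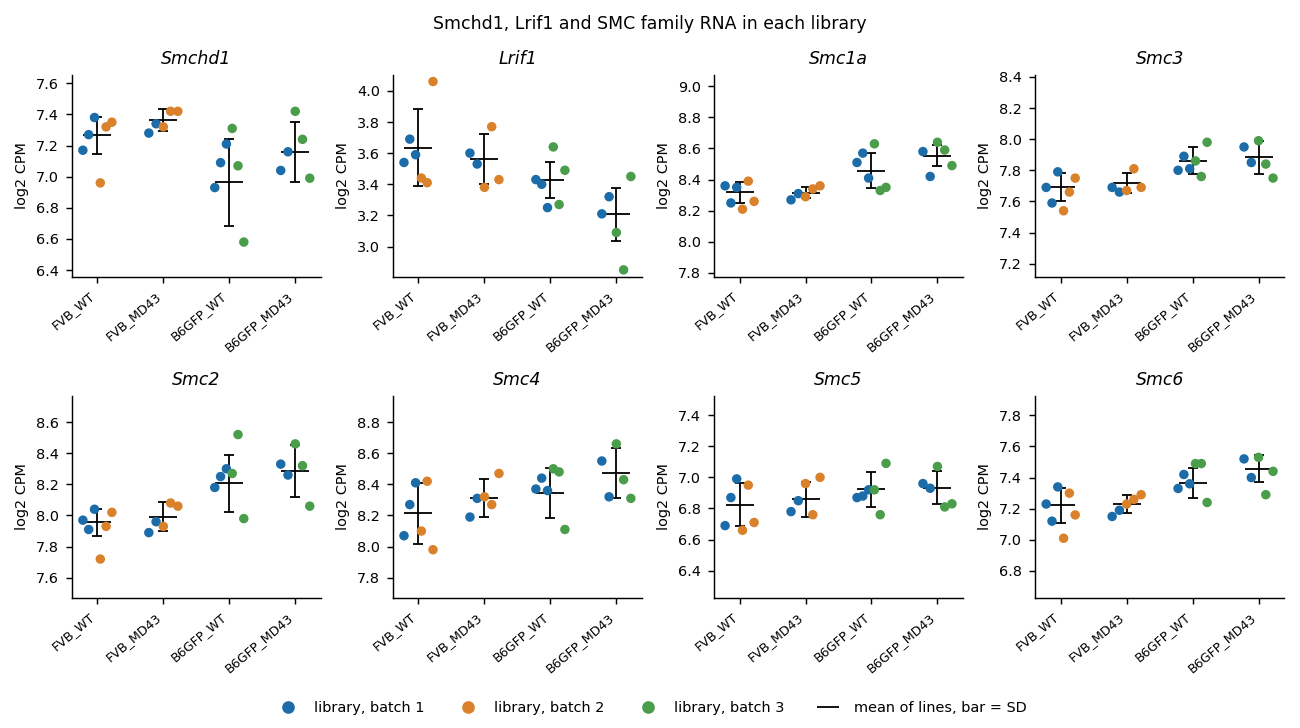
RNA level of each of the 8 genes in log2 CPM (vertical axis, each panel spanning the same range of log2 units) in every library of the 4 groups, coloured by batch, with the mean and SD over lines in black. The wild-type and MommeD43 points overlap within a strain for all 8 genes, while Smc1a and Smc2 lie higher in B6GFP libraries than in most FVB libraries.

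Lrif1 (Entrez 321000, chr3:106684942-106736577) was the member with the largest fitted MommeD43 difference in either strain. In FVB_WT it was listed at 3.41, 3.44, 3.54, 3.59, 3.69 and 4.06 log2 CPM, and in FVB_MD43 at 3.38, 3.43, 3.53, 3.6 and 3.77 log2 CPM. In B6GFP_WT it was at 3.25, 3.27, 3.4, 3.43, 3.49 and 3.64 log2 CPM, and in B6GFP_MD43 at 2.85, 3.09, 3.21, 3.32 and 3.45 log2 CPM. The values overlapped in both strains, and in each strain all but 1 of the 4 MommeD43 lines were under the mean of the wild-type lines. In FVB that mean, 3.63 log2 CPM, includes replicate 5 at 4.06, which stood apart from the other FVB_WT lines. The library medians in FVB were closer, at 3.57 in FVB_WT and 3.53 in FVB_MD43. The fitted difference was -0.091 (SE 0.0799) in FVB with limma adjusted p = 0.921 and -0.17 (SE 0.104) in B6GFP with limma adjusted p = 1. Averaged over both strains it was -0.13 (SE 0.0655, 95% CI -0.27 to 0.0044), with an unadjusted p of 0.0572 and limma adjusted p = 0.999. Among the alternatives run it passed only with the 2 columns that equal a group mean kept in the fit (-0.15, limma adjusted p = 0.0357). Those columns carry no spread of their own. With 1 line left out the Lrif1 difference was as small as -0.0475 in FVB (without FVB_MD43 replicate 2) and -0.0998 in B6GFP (without B6GFP_WT replicate 2, and nearly the same without B6GFP_MD43 replicate 1), and 1 value per line gave -0.052 in FVB. In B6GFP it was -0.501 within batch 3 and -0.116 within batch 1. The smallest adjusted p over these settings was 0.0709 in B6GFP, with all 24 columns, and 0.382 in FVB.

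The 6 SMC genes differed less between the genotypes. In FVB their fitted MommeD43 differences ran from -0.024 (Smc5) to 0.019 (Smc3). In B6GFP they ran from 0.0055 (Smc1a) to 0.066 (Smc6). By limma, 0 of the 8 genes passed an adjusted p of 0.05 in FVB, where 0.0737% of all genes did (11 genes). Likewise 0 of 8 passed in B6GFP, where 0% of all genes did, and 0 of 8 in the average over strains, where 0.0335% of all genes did (5 genes). At an unadjusted p under 0.05 the count of members was also 0 in each of these, against 6.86% of all genes in FVB, 2.14% in B6GFP and 4.62% in the average. The adjusted share of all genes depended on single lines. It was 6.54% in FVB without FVB_MD43 replicate 2 (976 genes) and 0.932% in B6GFP without B6GFP_MD43 replicate 3 (139 genes). None of the 8 members passed within a strain with any line left out. Lines of the genotypes overlapped for all 8 genes, where 1.05% of all genes in FVB and 1.23% in B6GFP had lines without overlap. The widest 95% interval among the SMC genes was that of Smc4 in B6GFP, from -0.13 to 0.2, and the narrowest was that of Smc1a in FVB, from -0.08 to 0.084. The test of the difference between strains in the MommeD43 effect gave 0 of 8, where 0% of all genes passed, with fitted differences from -0.082 (Lrif1) to 0.071 (Smc6) and limma adjusted p = 1 for all 8. At an unadjusted p under 0.05 that count was 0 as well, against 3.07% of all genes.

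Strain was the contrast in which these genes moved. In wild-type cells 6 of the 8 genes differed between B6GFP and FVB by limma, 4 higher and 2 lower in B6GFP, where 41.1% of all genes passed (17.9% higher and 23.2% lower). In MommeD43 cells 6 of 8 again passed, 4 higher and 2 lower, where 34.4% of all genes did (14.7% higher and 19.6% lower). The same genes made up the 6 in both. Smc1a, Smc2, Smc3 and Smc6 were higher in B6GFP, Smchd1 and Lrif1 were lower, and Smc4 and Smc5 did not pass. The median difference of the 8 was 0.159 in wild type and 0.184 in MommeD43, against -0.0215 and -0.0276 over all genes.

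These calls rest on the quality weights. Without weights 0 of the 8 genes passed in either genotype, where 8.44% and 6.82% of all genes did, although all 6 kept their direction. Smchd1 in wild type was then -0.26 with limma adjusted p = 0.266 and Smc2 in wild type 0.27 with adjusted p = 0.117. The smallest of these 12 adjusted p was 0.105, that of Smc1a in MommeD43. Within batch 1, which held both strains, 4 of 8 passed in wild type and 2 of 8 in MommeD43 (Smc2 and Smc6), where 34.1% and 24.1% of all genes did.

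**Figure D3:**
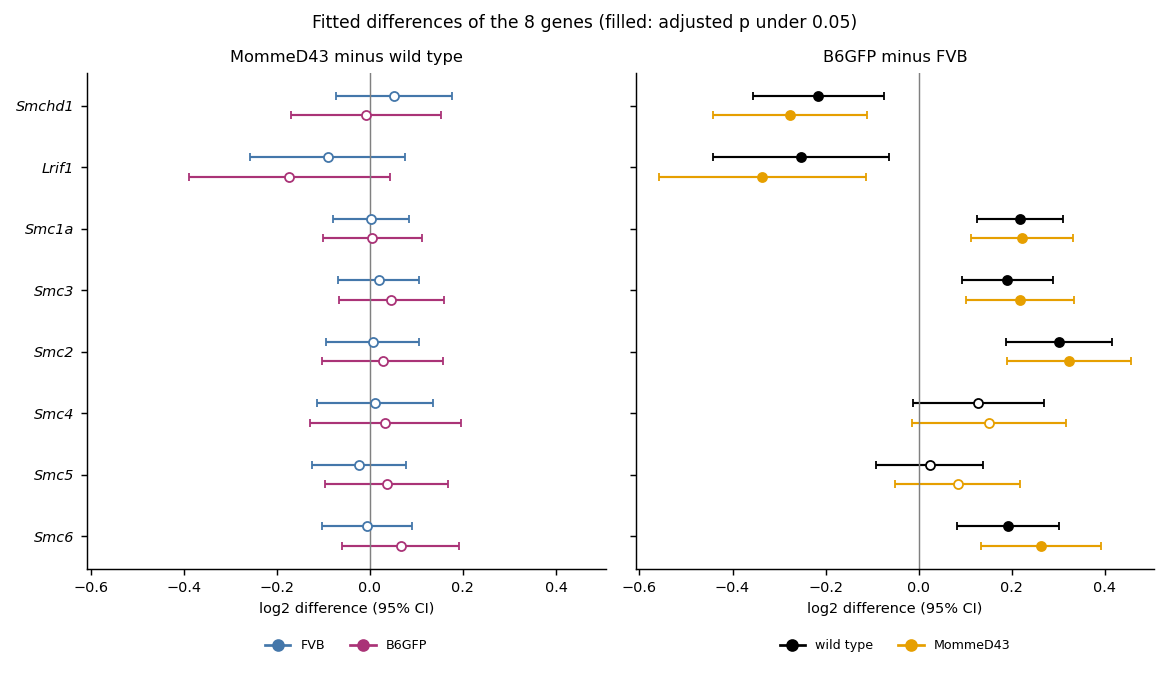
Fitted log2 differences (horizontal axis) of the 8 genes with 95% confidence intervals, for MommeD43 minus wild type in each strain (left) and B6GFP minus FVB in each genotype (right), with filled points where the limma adjusted p was under 0.05. All points on the left are open and lie between -0.17 and 0.066, while 12 of the 16 points on the right are filled.

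Smc2 (Entrez 14211, chr4:52439221-52488365), the condensin ATPase subunit, showed the largest rise. It was listed in FVB_WT at 7.72, 7.91, 7.93, 7.97, 8.02 and 8.04 log2 CPM and in B6GFP_WT at 7.98, 8.18, 8.25, 8.27, 8.3 and 8.52 log2 CPM. All but 1 of the B6GFP_WT libraries lay above every FVB_WT library. The fitted difference was 0.3 (SE 0.0545), or 23.3% higher, with limma adjusted p = 0.000163. In FVB_MD43 it was at 7.89, 7.93, 7.96, 8.06 and 8.08 log2 CPM and in B6GFP_MD43 at 8.06, 8.26, 8.32, 8.33 and 8.46 log2 CPM, again with 1 B6GFP library inside the FVB range. The fitted difference was 0.32 (SE 0.0641), or 25.0% higher, with limma adjusted p = 0.000578. Within batch 1 it was 0.26 in wild type and 0.37 in MommeD43. Its condensin partner Smc4 (Entrez 70099, chr3:69004738-69034623) was at 7.98 to 8.42 log2 CPM in FVB_WT (median 8.18) and 8.11 to 8.5 in B6GFP_WT (median 8.41), with wide overlap. Its fitted difference was 0.13 (SE 0.0678, limma adjusted p = 0.139) in wild type and 0.15 (SE 0.0797, limma adjusted p = 0.152) in MommeD43. The wild-type difference passed without FVB_WT replicate 3 (0.19, limma adjusted p = 0.0405). In MommeD43 it passed without FVB_MD43 replicate 2 (0.24, limma adjusted p = 0.0176) and without B6GFP_MD43 replicate 3 (0.24, limma adjusted p = 0.00218). It also passed with 1 value per line (0.24, limma adjusted p = 0.0143) and with all 24 columns (0.14, limma adjusted p = 2.68e-15). The fit with all 24 columns called 93.8% of all genes, and 2 of its columns equal a group mean and carry no spread of their own. Leaving out B6GFP_MD43 replicate 1 brought the MommeD43 difference of Smc4 to 0.0301.

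Smc1a (Entrez 24061, chrX:152016428-152061973), the cohesin ATPase encoded on the X chromosome, rose by 0.22 (SE 0.0445) in wild type, or 16.3%, with limma adjusted p = 0.000543. FVB_WT libraries were at 8.21, 8.25, 8.26, 8.35, 8.36 and 8.39 log2 CPM and B6GFP_WT libraries at 8.33, 8.35, 8.41, 8.51, 8.57 and 8.63 log2 CPM, so the 2 lowest B6GFP_WT libraries lay inside the FVB_WT range. In MommeD43 the groups did not overlap. FVB_MD43 libraries were at 8.27, 8.29, 8.31, 8.34 and 8.36 log2 CPM and B6GFP_MD43 libraries at 8.42, 8.49, 8.58, 8.59 and 8.64 log2 CPM. The fitted difference was 0.22 (SE 0.0524), with limma adjusted p = 0.00255. It fell to 0.138 without B6GFP_MD43 replicate 1, where it still passed, and did not pass within batch 1 (0.21, limma adjusted p = 0.0523). Lines of the strains were without overlap in MommeD43 for Smc1a and Smc6, that is 2 of the 8 genes, against 21.3% of all genes. In wild type this held for 0 of the 8 genes, against 15.9% of all genes.

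Smc3 (Entrez 13006, chr19:53600396-53645831), the other cohesin ATPase, rose by 0.19 (SE 0.0472, limma adjusted p = 0.00295) in wild type and by 0.22 (SE 0.0555, limma adjusted p = 0.00463) in MommeD43. It spanned 7.54 to 7.79 log2 CPM in FVB_WT and 7.76 to 7.98 in B6GFP_WT, and 7.66 to 7.81 in FVB_MD43 and 7.75 to 7.99 in B6GFP_MD43. Each pair of ranges overlapped by less than 0.1 log2 units. Smc3 did not pass in wild type without FVB_WT replicate 2 (0.1, limma adjusted p = 0.117) or with 1 value per line (0.12, limma adjusted p = 0.0709). Within batch 1 Smc3 passed in neither wild type (0.16, limma adjusted p = 0.0752) nor MommeD43 (0.22, limma adjusted p = 0.0691). Smc6 (Entrez 67241, chr12:11265886-11319785) rose by 0.19 (SE 0.0526, limma adjusted p = 0.00634) in wild type and by 0.26 (SE 0.0619, limma adjusted p = 0.00252) in MommeD43. It spanned 7.01 to 7.34 log2 CPM in FVB_WT against 7.24 to 7.49 in B6GFP_WT, and 7.15 to 7.29 in FVB_MD43 against 7.29 to 7.53 in B6GFP_MD43. In wild type it did not pass without FVB_WT replicate 2 (0.098) or without B6GFP_WT replicate 2 (0.16). Nor did Smc6 pass in wild type with 1 value per line (0.14, limma adjusted p = 0.077) or within batch 1 (0.15, limma adjusted p = 0.103). Its partner Smc5 (Entrez 226026, chr19:23206441-23273922) was at 6.66 to 6.99 log2 CPM in FVB_WT and 6.76 to 7.09 in B6GFP_WT. The fitted differences of Smc5 were 0.024 (SE 0.0551, 95% CI -0.091 to 0.14) in wild type and 0.083 (SE 0.0649, 95% CI -0.052 to 0.22) in MommeD43. Neither passed. The MommeD43 difference did so without FVB_MD43 replicate 2 (0.15, limma adjusted p = 0.047) and with all 24 columns (0.052, limma adjusted p = 1.41e-08), among which the 2 columns equal to a group mean carry no spread of their own.

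Smchd1 was lower in B6GFP, where it is made as a fusion, by a fitted -0.22 (SE 0.0676) in wild type, with limma adjusted p = 0.0143. In MommeD43 the fitted difference was -0.28 (SE 0.0796, limma adjusted p = 0.0102), and with the library values given above the groups overlapped in both genotypes. The largest gap between libraries of 1 line, 0.305, was wider than either difference. The wild-type call was lost without B6GFP_WT replicate 1 (-0.14, limma adjusted p = 0.147) and without FVB_WT replicate 3 (-0.17, adjusted p = 0.0752). The MommeD43 call was lost without B6GFP_WT replicate 2 (-0.19, limma adjusted p = 0.0676). Lrif1 was lower in B6GFP by -0.25 (SE 0.0906, limma adjusted p = 0.0298) in wild type and -0.34 (SE 0.107, limma adjusted p = 0.0186) in MommeD43. The wild-type call for Lrif1 was lost on leaving out any of B6GFP_WT replicates 1, 2 and 3 or FVB_WT replicate 2, with limma adjusted p from 0.0513 to 0.167. It was also lost with 1 value per line (-0.1752, limma adjusted p = 0.1645). Centring each library on its median over genes shifted the median strain difference of all genes from -0.0215 to 0.0445 in wild type and turned the split of calls over all genes from 2676 higher and 3455 lower to 3608 and 2544. Under that scaling Smchd1 (-0.15, limma adjusted p = 0.0877) and Lrif1 (-0.19, adjusted p = 0.106) did not pass in wild type, and Lrif1 did not pass in MommeD43 either (-0.27, limma adjusted p = 0.0572). Smc1a, Smc2, Smc3 and Smc6 passed under it in both genotypes.

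The partners of each complex were read from lists of subunits. Their counts stand against 41.1% of all genes that passed in wild type (17.9% higher) and 34.4% in MommeD43 (14.7% higher). Condensin I has 3 non-SMC subunits, and all 3 were higher in B6GFP in wild type. Ncapd2, a HEAT-repeat subunit, was at 7.69 to 7.9 log2 CPM in FVB_WT and 8.1 to 8.46 in B6GFP_WT, without overlap, a fitted difference of 0.47 (SE 0.062, limma adjusted p = 4.14e-06). Ncapg differed by 0.3 (SE 0.0648, limma adjusted p = 0.00093) and the kleisin Ncaph by 0.18 (SE 0.0607, limma adjusted p = 0.0202). In MommeD43 2 of the 3 passed, Ncapd2 (0.43) and Ncaph (0.2). Of the 3 condensin II subunits 1 passed in both genotypes. This was Ncapg2, which was at 6.35 to 6.88 log2 CPM in FVB_WT and 7.08 to 7.36 in B6GFP_WT and differed by 0.52 (SE 0.0709, limma adjusted p = 7.39e-06) in wild type and 0.49 (SE 0.0835) in MommeD43. Ncaph2 and Ncapd3 did not pass. Ncapd2 passed under every alternative run in both genotypes, and without quality weights it was the 1 condensin I subunit that did.

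**Figure D4:**
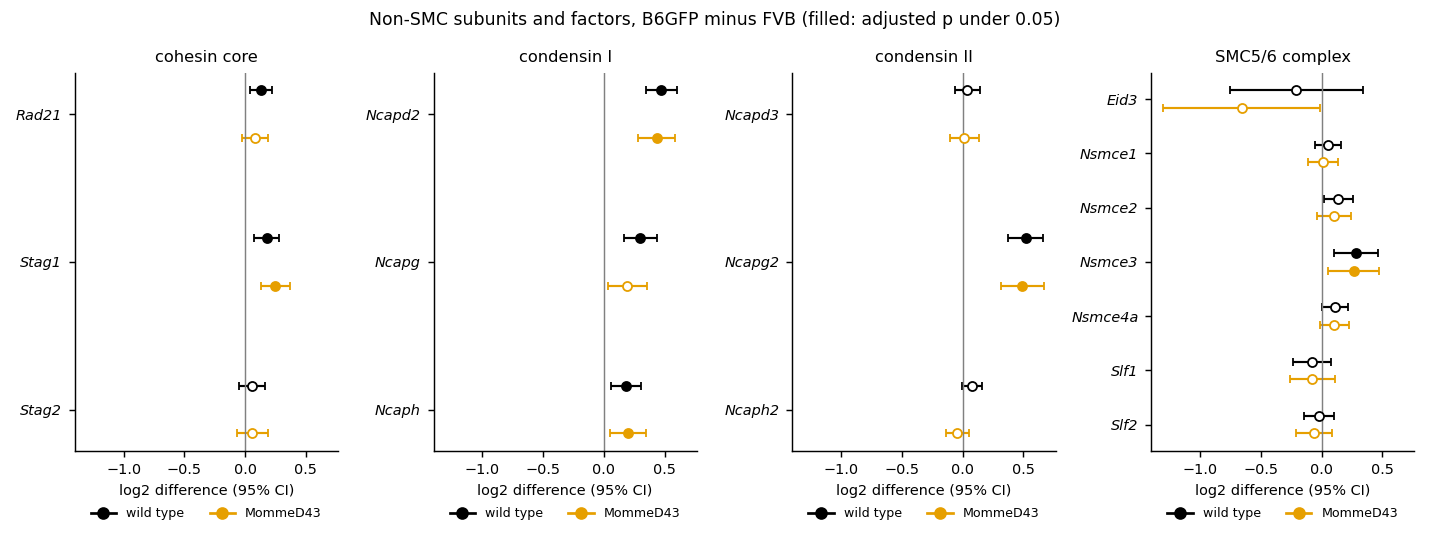
Fitted B6GFP minus FVB differences in log2 units (horizontal axis) with 95% confidence intervals for the non-SMC members of the cohesin core, condensin I, condensin II and the SMC5/6 complex, in wild type and MommeD43, with filled points where the limma adjusted p was under 0.05. Ncapd2 and Ncapg2 lie farthest to the right, at 0.43 to 0.52 in the 2 genotypes.

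Cohesin and SMC5/6 subunits showed smaller differences. In the cohesin core Stag1 (0.18, SE 0.0489, limma adjusted p = 0.00636) and the kleisin Rad21 (0.13, SE 0.0447, limma adjusted p = 0.0217) were higher in B6GFP in wild type, which is 2 of 3. These 2 of 3 stand against 41.1% of all genes. Stag1 alone passed in MommeD43 (0.25, SE 0.0575, limma adjusted p = 0.00223). In the SMC5/6 complex 1 of 7 measured genes passed in each genotype, against 41.1% and 34.4% of all genes. It was Nsmce3, a subunit that binds the kleisin (0.28 with limma adjusted p = 0.0113, and 0.27 with limma adjusted p = 0.0454). Its MommeD43 call was lost in 7 of the 17 fits with a line left out, whose values ran from 0.131 (without B6GFP_MD43 replicate 3) to 0.481 (without B6GFP_MD43 replicate 1), and in 4 of 9 other settings. Of the germline cohesin genes Rec8 and Stag3 were in the table. Rec8, the meiotic kleisin, passed in wild type (1.42, SE 0.397, limma adjusted p = 0.00707) and lost that call without quality weights or without B6GFP_WT replicate 2 (1.01), at a very low level of -1.38 to -0.29 log2 CPM in FVB_WT and -0.4 to 3.41 in B6GFP_WT. Smc1b and Rad21l were not in the table.

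Among other ATPases related to Smchd1 by their SMC-like or GHKL fold, 2 of 4 measured genes passed in wild type, near the 41.1% of all genes that did. Morc4 was higher in B6GFP (0.43, SE 0.0953, limma adjusted p = 0.00116) and Morc2a lower (-0.23, SE 0.086, limma adjusted p = 0.0377), a call lost in 7 of the 17 fits with a line left out. In MommeD43 Morc4 alone passed (0.46, SE 0.112, limma adjusted p = 0.00299), but not without FVB_MD43 replicate 2 (0.24, limma adjusted p = 0.0503) or within batch 1 (0.46, limma adjusted p = 0.065). Of the HP1 genes, whose products bind Lrif1, Cbx1 (-0.18, limma adjusted p = 0.0153) and Cbx5 (-0.16, limma adjusted p = 0.0263) were lower in wild type. In MommeD43 Cbx3 was higher (0.23, limma adjusted p = 0.0335), a call lost without the mean trend (limma adjusted p = 0.0514) and in 4 of the 17 fits with a line left out (0.15 without B6GFP_MD43 replicate 1). Without quality weights no cohesin, SMC5/6, GHKL or HP1 gene passed, and without FVB_WT replicate 2 the wild-type calls of Stag1, Rad21, Ncaph, Nsmce3, Morc2a, Cbx1 and Cbx5 were lost. None of the members of these 7 partner lists passed in any MommeD43 comparison within a strain (0 of 25 genes in FVB and in B6GFP).

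Genes of proliferating cells and of glia moved with the strain contrast as well. Of 18 proliferation genes 12 were higher and 0 lower in B6GFP in wild type, with a median difference of 0.159, where 17.9% of all genes were higher. In MommeD43 5 were higher and 0 lower, with a median of 0.119, where 14.7% of all genes were higher. Those with the smallest p in wild type were Cenpe (0.34, limma adjusted p = 0.000357), Mcm2 (0.29, limma adjusted p = 0.000418) and Kif11 (0.33, limma adjusted p = 0.000757). Without quality weights 1 of the 18 passed in wild type and 0 in MommeD43. The summed level of the list was 11.8 to 12.1 log2 CPM in FVB_WT and 11.8 to 12.4 in B6GFP_WT. Their part in the differences of the condensin genes was not tested. All 4 astrocyte markers were lower in B6GFP in both genotypes, with a median of -1.76 in wild type and -2.17 in MommeD43, where 23.2% and 19.6% of all genes were lower. Without quality weights 1 of the 4 passed in wild type and 3 in MommeD43. Oligodendrocyte markers were lower as well, 3 of 5 in wild type and 4 of 5 in MommeD43 (3 of 5 in each without quality weights), against the same shares of all genes, at summed levels of 2.2 to 4.49 log2 CPM in FVB_WT and 0.062 to 1.04 in B6GFP_WT. In these bulk samples fewer cells of a type and less RNA per cell cannot be told apart, and the part of these markers in the differences of the 8 genes was not tested. Neural stem cell markers moved both ways, with Nes higher (0.67) and Hes1 (-1.41) and Sox2 (-0.4) lower in B6GFP in wild type. Neuron markers were mixed, with 1 of 5 higher and 2 of 5 lower in wild type, where 0 passed without quality weights, and 1 higher and 1 lower in MommeD43, where 1 passed without weights. Their summed level was 5.47 to 8.6 log2 CPM in B6GFP_MD43 and 4.63 to 4.94 in FVB_MD43, with B6GFP_MD43 replicate 2 the highest. Without that line the strain count of members in MommeD43 was again 6 of 8. Endothelial markers (0 of 4) and the microglial marker in the table (P2ry12, 0 of 1) did not pass, and 1 of 3 fibroblast markers (Col1a1, -2.0) was lower at a summed level of at most 0.706 log2 CPM in FVB_WT.

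Promoters are shown for the gene with the largest SMC difference, for the condensin I subunits with the 2 largest differences in wild type (in MommeD43 Ncaph exceeded Ncapg), and for Smchd1, which moved the other way. They are the 250 bases before the RefSeq start (GRCm38.p6), with capitals for CCAAT (reverse ATTGG), for TTTGAA (reverse TTCAAA), the core of the cell cycle homology region (CHR), and for the E2F-type motif TTTNNCGC (reverse GCGNNAAA), on either strand. The 3 motifs do not share letters in the windows shown.
Smc2, chr4:52438971-52439220, plus strand: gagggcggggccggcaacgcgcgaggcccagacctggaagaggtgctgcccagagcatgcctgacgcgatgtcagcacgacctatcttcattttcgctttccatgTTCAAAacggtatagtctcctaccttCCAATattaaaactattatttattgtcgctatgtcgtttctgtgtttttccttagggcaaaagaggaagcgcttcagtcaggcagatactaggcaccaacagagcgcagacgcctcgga
Ncapd2, chr6:125191587-125191836, minus strand: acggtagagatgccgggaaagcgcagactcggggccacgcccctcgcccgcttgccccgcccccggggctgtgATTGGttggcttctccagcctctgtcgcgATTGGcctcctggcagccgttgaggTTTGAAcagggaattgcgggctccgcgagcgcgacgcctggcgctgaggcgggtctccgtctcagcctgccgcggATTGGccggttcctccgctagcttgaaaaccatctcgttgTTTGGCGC
Ncapg, chr5:45669675-45669924, plus strand: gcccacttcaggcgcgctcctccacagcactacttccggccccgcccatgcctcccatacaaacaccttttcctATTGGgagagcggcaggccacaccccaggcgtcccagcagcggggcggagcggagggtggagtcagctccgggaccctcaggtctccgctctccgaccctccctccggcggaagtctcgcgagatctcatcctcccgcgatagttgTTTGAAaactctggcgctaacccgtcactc
Smchd1, chr17:71475344-71475593, minus strand: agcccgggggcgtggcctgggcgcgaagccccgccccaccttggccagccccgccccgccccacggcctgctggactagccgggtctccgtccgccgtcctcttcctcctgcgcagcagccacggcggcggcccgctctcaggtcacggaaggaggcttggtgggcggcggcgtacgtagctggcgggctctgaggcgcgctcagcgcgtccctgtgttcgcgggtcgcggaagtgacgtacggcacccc
The Smc2 window held 1 CCAAT and 1 CHR match, that of Ncapd2 3 CCAAT, 1 CHR and 1 E2F match, and that of Ncapg 1 CCAAT and 1 CHR match. The windows of Smchd1, Smc3 and Ncaph held 0 matches of the 3 motifs, that of Smc1a 1 CCAAT match and that of Smc6 1 CHR match. Lrif1, also lower in B6GFP, has 2 windows, of which the first held 0 matches and the second 2 CCAAT matches, and the Smc5 window held 0. The first Lrif1 window runs into its gene span, while the second and that of Smc5 lie inside theirs. The counts for Smchd1, Lrif1 and Smc5 thus include bases inside those spans. Of 32536 promoter windows of this length, 33.8% held CCAAT, 15.8% held TTTGAA and 4.31% held TTTNNCGC. Ncaph was among the genes that rose without any match, and no factor was measured at these sites. Windows are not given for Smc4 or for Ncapg2, whose wild-type difference (0.52) was the largest of the condensin subunits.

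Likeness between genes was described over the 17 lines by Pearson's r, after the mean of its group was taken from each line. These r values carry no p, since lines share batch and depth, and 11008 genes with a mean of at least 2 log2 CPM were ranked. Members of a complex did not track each other closely. The r was 0.294 between Smc1a and Smc3, 0.576 between Smc2 and Smc4 and 0.354 between Smc5 and Smc6. Without the 2 lines farthest from the median of the first gene these became 0.562, 0.368 and 0.498. With the 2 lines chosen by the second gene instead they became 0.447, 0.609 and 0.621. Smchd1 tracked Smc2 more closely (r = 0.857, Spearman's rho = 0.841), and r was 0.769 without B6GFP_WT replicate 4 and B6GFP_MD43 replicate 2. Even so, Smc2 was only in rank 68 of the genes most like Smchd1. Smc4 with Smc6 (r = 0.776) and Smc1a with Smc6 (r = 0.727), of different complexes, also lay above the pairs of a complex. Smchd1 and its partner Lrif1 showed little relation (r = -0.155), and among the members Lrif1 had its most negative r with Smc4 (-0.593).

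**Figure D5:**
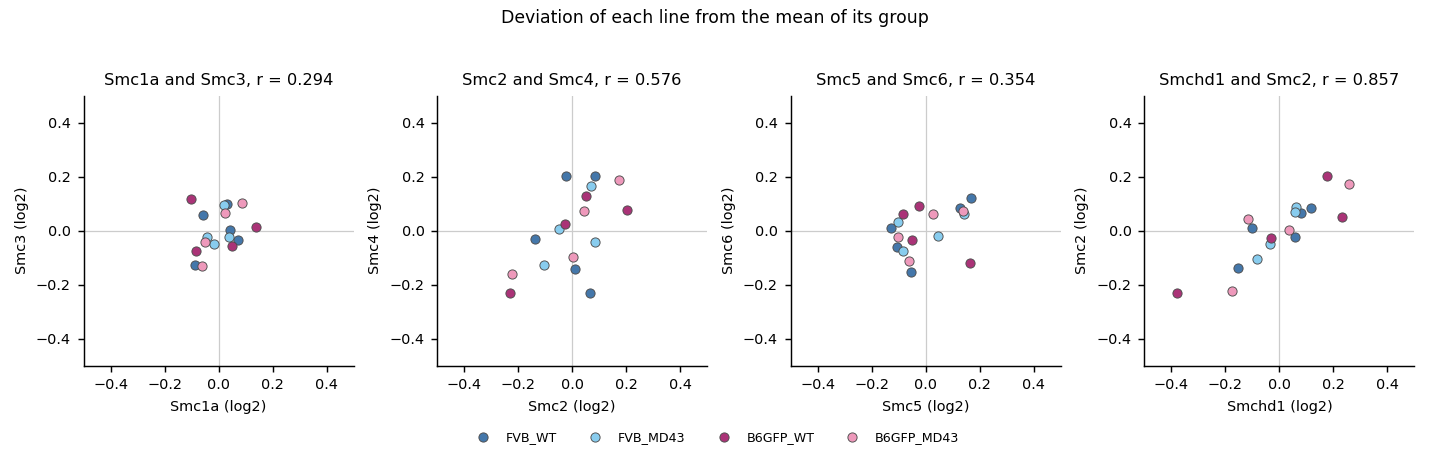
Deviation of each of 17 lines from the mean of its group, in log2 units on both axes, for the pairs Smc1a and Smc3, Smc2 and Smc4, Smc5 and Smc6, and Smchd1 and Smc2, coloured by group. The points of Smchd1 and Smc2 rise together (r = 0.857), with B6GFP_WT replicate 4 at the lower left, while those of Smc1a and Smc3 form a round cloud (r = 0.294).

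The genes most like Smchd1 included Cnot9 (r = 0.97), which encodes a subunit of the CCR4-NOT complex, and the nuclear pore gene Nup133 (0.954). Those most like Lrif1 were the RNA polymerase III subunit gene Polr3b (0.946), the tRNA-processing gene Elac2 (0.912) and Nt5dc1 (0.899). For the SMC genes the first in rank were Mbtd1 for Smc1a (0.907), the purine synthesis gene Ppat for Smc2 (0.964), the Golgi gene Gcc2 for Smc3 (0.911), the spindle midzone gene Prc1 for Smc4 (0.956), the kinase gene Pkn2 for Smc5 (0.936) and the polycomb gene Suz12 for Smc6 (0.901). By Spearman's rho the first in rank stayed the same for Smchd1 and Smc1a and changed for the other 6 genes.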

How the data were processed

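Poly(A) RNA of cultured NSCs was sequenced from TruSeq libraries. Per the study's methods and the submitters' processing notes, the authors trimmed reads with Trim Galore 0.4.4, aligned them with HISAT2 2.0.5 to GRCm38.p6 (a C57BL/6J assembly, also for FVB reads), and deposited log2 CPM values after batch correction with limma 3.40.6. The study's methods name sex and strain beside batch in that correction. They do not say whether the deposited values were adjusted for strain. The counter and annotation are not given in the sources used here.

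Of 24 columns, 2 equal to the mean of their group mates (tolerance 1e-06) were left out, since their values repeat the others. The remaining 22 columns belong to 17 lines. Linear values summed to between 0.8985 and 0.9797 of the total expected for CPM, which leaves room for genes not in the table. No pseudocount was added, because values were already logged.

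Differences were fitted over all 14922 genes (247 without a symbol) in R 4.3.3 using limma 3.58.1. The model held group and batch terms, library quality weights, a mean trend and the line as a block (consensus correlation 0.0828). Calls were made at a Benjamini-Hochberg adjusted p of 0.05, taken over the whole table. Batch was already removed by the authors, so the batch term repeats part of that step. Group means and SDs are over lines, after averaging libraries of a line. The named genes are the 8 members, list genes that passed, and the genes with the highest Pearson's r. The members and lists were chosen with earlier results of these data known. Levels per kb used GENCODE transcript lengths. Alternatives changed the weights, trend, batch term, columns, unit of replication, scaling, low-value filter, batches, replicate number and each line in turn. Some B6GFP lines of both genotypes have labels with the same number before the point. A block on that number was added after the data were seen.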

Additional observations from a re-analysis of the deposited data

Results flagged for a closer look

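The Lrif1 level of FVB_WT replicate 5 was 4.06 log2 CPM, while the other 4 lines of its group were close together and lower. Its gap to the nearest line was a larger share of the range of the group than Dixon's critical value for 5 samples allows. It was 1 of 32 gene and group combinations checked, and chance is expected to set apart about 1 in 20.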

How the results depend on the processing

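Smc1a and Smc2 passed in both strain comparisons on leaving out each of the 17 lines in turn, and Lrif1, Smc3 and Smc6 did so in MommeD43. The count of members that passed for strain in wild type was 6, where 41.1% of all genes passed. It was 0 without quality weights (8.44% of all genes) and 3 with 1 value per line (35.6%). With a line left out it was 3 to 6 (26.9% to 42.9% of all genes). In MommeD43 the count was 6, where 34.4% of all genes passed. It was 0 without quality weights (6.82%), 2 within batch 1 (24.1%), 5 with centring (35.4%) and 7 with 1 value per line (44.5%). With a line left out it was 5 (without B6GFP_WT replicate 2, 33.1%) to 8 (without FVB_MD43 replicate 2, 40.2%). With all 24 columns it was 8, where 93.8% of all genes passed. Averaged over strains the MommeD43 count was 0, where 0.0335% of all genes passed, and 1 with all 24 columns, where 6.77% did. The causes were not tested.

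The MommeD43 differences of the members are near 0, and several changed sign while none passed. In FVB, 1 value per line gave Smc1a -0.020, Smc2 -0.014, Smc3 -0.0049 and Smc4 -0.0080. Centring gave Smc1a -0.013, Smc2 -0.0097 and Smc4 -0.0054, and batch 1 alone Smc1a -0.011, Smc2 -0.047, Smc3 -0.0023 and Smc4 -0.058. Without weights Smc5 was 0.047 and Smc6 0.022, and in batch 2 alone 0.18 and 0.12. Smc6 was 0.00058 without a batch term and 0.026 with all 24 columns. In B6GFP, Smchd1 was 0.16 without weights, 0.063 without a batch term, 0.049 with 1 value per line, 0.096 with all 24 columns, 0.051 in batch 1 and 0.061 in batch 3. Smc1a was -0.0085 with centring and -0.0071 in batch 1, and batch 3 gave Smc2 -0.030, Smc4 -0.011, Smc5 -0.024 and Smc6 -0.11. For strain, Smc5 in wild type was -0.016 in batch 1.

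With a line left out, the FVB differences ranged from -0.050 to 0.019 for Smc1a, -0.046 to 0.037 for Smc2, -0.063 to 0.067 for Smc3, -0.072 to 0.055 for Smc4, -0.091 to 0.020 for Smc5 and -0.096 to 0.045 for Smc6. In B6GFP they ranged from -0.073 to 0.089 for Smchd1, -0.062 to 0.043 for Smc1a, -0.014 to 0.059 for Smc2 and -0.072 to 0.11 for Smc4. For Lrif1 they ranged from -0.114 to -0.0475 in FVB and -0.216 to -0.0998 in B6GFP.

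Replicate numbers did not pair the samples, since same-numbered lines had correlations of -0.484 to 0.138 in FVB and -0.355 to 0.131 in B6GFP. With a replicate block 0 of 8 members passed, and Smc5 (0.034) and Smc6 (0.056) in FVB and Smchd1 (0.052) in B6GFP changed sign. Line labels tie some B6GFP lines of both genotypes by the digits ahead of the point, and with those digits as the block the strain counts were again 6 and 6 and the MommeD43 counts 0. Lrif1 had the lowest level of the members (9.23 to 12.4 CPM by group mean), and batch 2 holds the shallowest FVB libraries. The part of depth in the spread of Lrif1 was not tested.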
